A study of Homo sapiens with 4 samples.

Results

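The lncRNA locus of NEAT1 and MALAT1 on human chromosome 11 was described from the summits of 2 CEBPB ChIP-seq peak lists and from the authors' table of reproducible regions. Members were all summits between 65.150 and 65.320 Mb of the hg19 build, a window of 170 kb, and all regions of the irreproducible discovery rate (IDR) table inside it. They numbered 49 of 80530 summits in replicate 1, 58 of 104307 summits in replicate 2 and 14 of 25594 reproducible regions on chromosomes 1 to 22 and X. The window was chosen by the positions and folds of these same peaks, which are many there, so its counts, folds and heights are given as a description. The only test run is that of the difference in fragments between the replicates. Chromatin came from NCM460, a cell line derived from human colon epithelium, grown without any treatment or genetic change named in the labels. CEBPB was precipitated in 2 samples and 2 input samples were the controls, described in the design text as independent experiments, so every result concerns 1 cell line in 1 state. The gene limits were known to the nearest kb, 65.190 to 65.213 Mb for NEAT1 and 65.265 to 65.274 Mb for MALAT1. Counts per gene use these rounded limits, so a summit within 1 kb of a limit, called at the start or end of the gene, may lie on its other side.

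CEBPB is a basic leucine zipper transcription factor that binds DNA as a dimer and acts in differentiation, inflammation and the acute phase response. NEAT1 and MALAT1 are abundant nuclear long noncoding RNAs transcribed in the same direction. NEAT1 is the scaffold around which paraspeckles assemble, with a short and a long isoform that share a promoter, and MALAT1 is enriched in nuclear speckles, where splicing factors gather. The RefSeq gene order for GRCh38.p14 places the miRNA gene MIR612 next after the start of NEAT1. FAUP4, ENEMAL and LINC02736 follow before MALAT1. The antisense RNA gene TALAM1 and MASCRNA, a small RNA processed from the MALAT1 end, follow the MALAT1 start, and FRMD8 and SLC25A45 lie on the NEAT1 side. The list was cut after MASCRNA, so genes farther past MALAT1 are not named. That order carries no hg19 positions, so no peak was assigned to these neighbours.

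RefSeq lists 2 MALAT1 promoters in GRCh38.p14, each of 300 bases from 250 before to 50 after a start, and they are shown because summits lay at the MALAT1 start and just inside the gene. Of the 2 genes, 1 was matched in the promoter table. The sequences could not be matched base by base to the hg19 summits. The first lies at chr11:65497488-65497787 and the second at chr11:65498795-65499094, both on the plus strand. Capitals mark matches to TTNCNNAA, a relaxed C/EBP pattern, on either strand.
MALAT1 promoter 1: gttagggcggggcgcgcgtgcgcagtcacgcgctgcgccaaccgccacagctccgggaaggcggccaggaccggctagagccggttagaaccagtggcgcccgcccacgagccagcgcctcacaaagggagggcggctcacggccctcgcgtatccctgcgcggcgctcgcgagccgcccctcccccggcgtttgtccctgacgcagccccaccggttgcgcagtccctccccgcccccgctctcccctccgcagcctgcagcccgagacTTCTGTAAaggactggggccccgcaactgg
MALAT1 promoter 2: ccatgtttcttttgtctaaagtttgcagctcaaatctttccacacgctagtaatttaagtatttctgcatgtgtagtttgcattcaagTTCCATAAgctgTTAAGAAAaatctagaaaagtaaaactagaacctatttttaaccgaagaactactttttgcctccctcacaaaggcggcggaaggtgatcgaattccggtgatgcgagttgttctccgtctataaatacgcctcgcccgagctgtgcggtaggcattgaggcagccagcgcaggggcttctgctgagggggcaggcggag
Promoter 1 was a CpG-rich sequence with 73.7% G and C and 37 CG pairs, against 46.0% and 14 in promoter 2. The relaxed pattern matched once in promoter 1, starting 20 bases after the start, and at 2 places in promoter 2, starting 162 and 150 bases before the start. It was present in 36.8% of 35116 RefSeq promoters of 300 bases, so a match is common. None of the other letters searched on both strands was in either promoter: TTGCGCAA, the C/EBP palindrome (0.151% of promoters), TTGCNNAA, which includes it and is included in TTNCNNAA (10.5%), TGATGCAA, a composite C/EBP and ATF site (0.866%), and TGANTCA, the AP-1 site (7.71%). That says only that these letters were not in these windows.

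CEBPB summits lay on both sides of both genes, inside both and in the DNA between them. The 9 kb of MALAT1 held 7 summits in each replicate, or 7.78 per 10 kb in both, and the 23 kb of NEAT1 held 9 and 14 summits in replicates 1 and 2, or 3.91 and 6.09 per 10 kb. The 52 kb between the genes held 14 and 19 summits, 2.69 and 3.65 per 10 kb. The 40 kb before NEAT1 held 10 and 9 summits and the 46 kb after MALAT1 held 9 in each. Peak intervals covered 22.6% and 21.2% of MALAT1 and 12.9% and 21.2% of NEAT1 in replicates 1 and 2. Over the whole window they covered 9.23% and 10.2%, and over the chromosomes 0.733% and 0.916%. By the position of their tallest summits, the 14 reproducible regions, called sites here and numbered along the chromosome, split into 2 before NEAT1, 2 in it, 6 between the genes, 1 in MALAT1 and 3 after it. Summits were densest in MALAT1 in both replicates. Sites per 10 kb were 1.15 between the genes, 1.11 in MALAT1 and 0.87 in NEAT1, where 1 of the 2 lay at the start. Leaving out summits within 1 kb of a limit, MALAT1 held 5 and 6 summits and NEAT1 6 and 12.

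**Figure D1:**
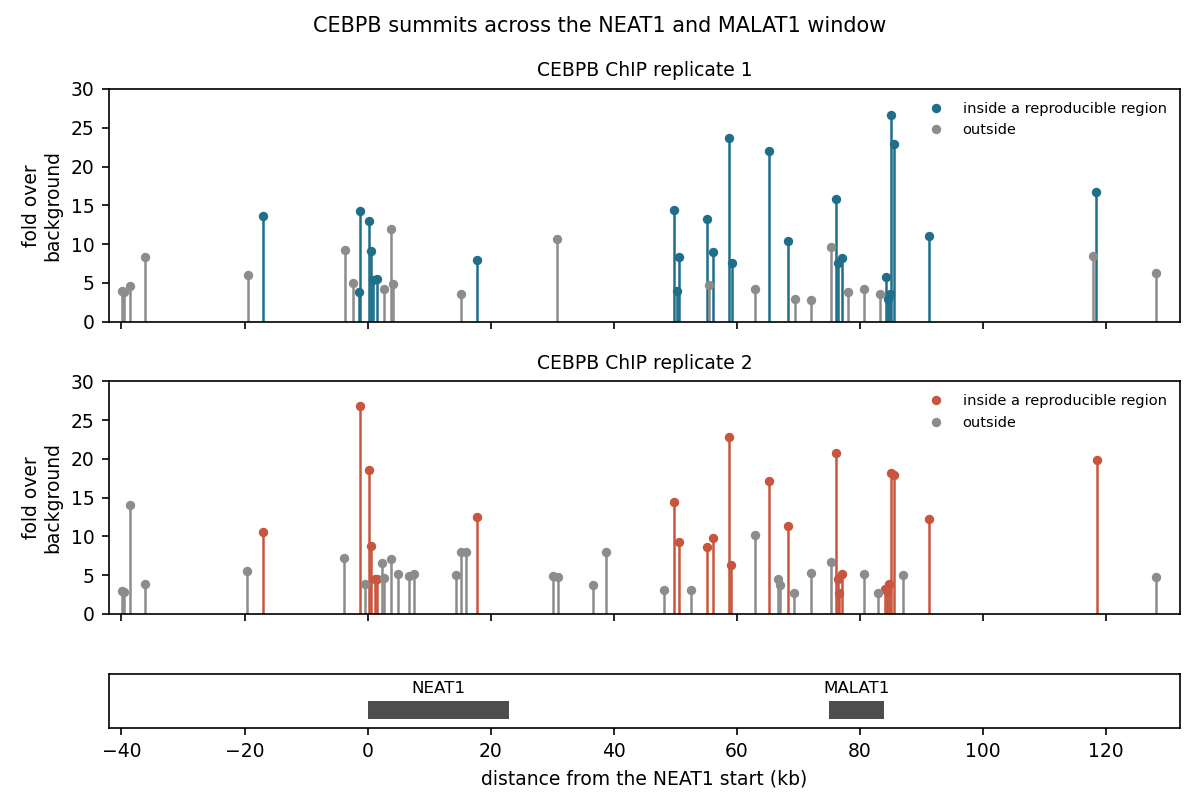
Fold over background of every CEBPB summit (vertical axis) against the distance from the NEAT1 start in kb (horizontal axis), for replicate 1 (upper) and replicate 2 (middle), with the genes as bars below; coloured summits lie inside a reproducible region and grey ones outside. The tallest summits of replicate 1 are after MALAT1 (fold 26.7) and between the genes (23.7), and that of replicate 2 is just before NEAT1 (26.8).

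At the 5′ side of NEAT1, 2 sites lay 1.38 kb apart. Site 2 (chromosome 11, 65188482 to 65189116) had its summit 1.17 kb before the NEAT1 start, at 65188830 in replicate 1 and 65188835 in replicate 2. The authors' fold, the ratio of ChIP pileup to local background at the summit, was 14.3 in replicate 1 and 26.8 in replicate 2, a mean of 20.5 ± 8.86 (SD, n = 2). The summit rested on 122 and 143 units of pileup, called fragments here, which may be extended reads or read pairs. The background was 7.0 and 3.31. It is given here in units of the scaled pileup, where a fragment counts 0.927 in replicate 1 and 0.80 in replicate 2.

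Site 3 (65189991 to 65191705) covered the NEAT1 start, where transcription of both isoforms begins. Its tallest summit had a fold of 13.0 in replicate 1 and 18.6 in replicate 2, with 97 and 138 fragments. A further summit, 0.55 kb from the start, had folds of 9.13 and 8.73 with 57 and 71 fragments, and another, 1.53 kb from the start, had 5.50 and 4.49. Each replicate had 4 summits in this site, and the one nearest to the gene start was the tallest in both.

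More than 1 kb inside NEAT1 the median fold was 5.15 over 6 summits of replicate 1 and 5.17 over 12 of replicate 2, against 9.13 and 8.73 over the 3 summits in each within 1 kb of the start. Site 4 (65207734 to 65208000), 17.9 kb from the start and 5.14 kb before the gene's end, had a fold of 7.99 and 12.4 with 26 and 58 fragments. A pair of summits 3.81 kb from the start, in no reproducible region, had folds of 11.9 and 7.11 with 50 and 61 fragments. The pair at 2.69 kb had folds of 4.16 and 4.57 with 17 and 24 fragments. At 15.1 kb the folds were 3.49 and 8.01, with 14 and 33 fragments. Of the 14 summits of replicate 2 in NEAT1, 6 lay in intervals without an overlapping interval in replicate 1. All 9 of replicate 1 lay in intervals that overlapped one of replicate 2. In the whole lists, 62.8% of the intervals of replicate 2 and 82.0% of those of replicate 1 had such an overlap, so nothing about NEAT1 is read from this difference. No summit of either list lay within 1 kb of the NEAT1 end.

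Between the genes, all 6 sites had their summits within 25.1 kb of the MALAT1 start. Site 5 (65239554 to 65240817) had folds of 14.4 in both replicates, with 69 and 90 fragments, and a further summit with folds of 8.36 and 9.21. Sites 6 (65245016 to 65245253) and 7 (65245922 to 65246274) were neighbours 0.94 kb apart: site 6 had folds of 13.2 and 8.65 with 56 and 45 fragments, and site 7 had 8.91 and 9.80 with 47 and 60. Site 6 was the only one of the 14 sites with more fragments in replicate 1 than in replicate 2.

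Site 8 (65248662 to 65249352), 16.2 kb before MALAT1, had the highest mean fold of the locus, 23.3 ± 0.58 (SD, n = 2), with 23.7 and 22.8 in replicates 1 and 2 and 94 and 113 fragments. Site 9 (65255004 to 65255473), 9.79 kb before MALAT1, was the tallest in fragments, with 189 and 192, more than at 96.6% and 94.2% of all reproducible regions. Its folds of 22.02 and 17.2 were over backgrounds of 7.0 and 8.0, and the −log10 q-values were 170.3 and 132. Its summits, at 65255209 and 65255212, differed by 3 bp. Site 10 (65258218 to 65258530), 6.63 kb before MALAT1, was lower, with folds of 10.3 and 11.3 and 59 and 74 fragments.

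At the MALAT1 start a single summit was present in each replicate, at 65265236 and 65265239, which is 0.24 kb from the rounded start. It had folds of 9.63 and 6.66, a mean of 8.14 ± 2.1 (SD, n = 2), 47 and 45 fragments and −log10 q-values of 28.4 and 17.1. It passed the authors' peak threshold in both lists but was in no reproducible region. With the limit known to the nearest kb and 2 MALAT1 promoters in RefSeq, whether the stronger signal lay at a start was not settled. That signal lay 1.11 kb from the rounded start, inside the gene. Site 11 (65265895 to 65267183) had its tallest summit there, with folds of 15.8 and 20.8 and 84 and 144 fragments, and further summits with folds of 7.61 and 4.56 and, 2.03 kb inside, of 8.16 and 5.15. In the rest of MALAT1, the summit pair 5.64 kb inside had folds of 4.23 and 5.19 with 21 and 35 fragments.

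Just beyond MALAT1 lay the widest site of the locus. Site 12 (65273779 to 65276170) spanned the gene's end and held 5 summits in each replicate, of which 2 were tall. The first, 1.12 kb past the end, had folds of 26.7 and 18.1 with 151 and 180 fragments. The second, 1.59 kb past the end, had 22.95 and 17.9 with 98 and 133 fragments. They were 470 bp apart in replicate 1 and 463 bp apart in replicate 2. The summits of this site nearer to the gene were low, with folds of 5.76 and 3.00 at 0.36 kb past the end and of 3.53 and 3.88 at 0.83 kb.

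The outer sites stood over a low background. Site 13 (65281065 to 65281373), 7.21 kb past MALAT1, had folds of 11.02 and 12.2 from 29 and 44 fragments. Site 14 (65308311 to 65308721), 34.5 kb past MALAT1, had 16.7 and 19.9 from 53 and 78. Site 1 (65172869 to 65173180), 17.0 kb before NEAT1, had 13.6 and 10.6 from 29 and 30 fragments. Their backgrounds, in scaled units, spanned 1.06 to 2.0 for replicate 1 and 1.36 to 2.18 for replicate 2, so that folds like those of site 5 came from fewer fragments. The background of site 1 in replicate 2 was at the floor, the lowest value that MACS2 gives.

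Set beside all 25594 reproducible regions, the sites were of ordinary strength by fold. Their mean folds ran from 9.35 at site 7 to 23.3 at site 8, with a median of 15.1 against 15.8 over all regions, and 6 of 14 lay above that median. The median site stood above 45.8% of all regions. None was in the strongest 10% by mean fold: site 8 stood above 77.2%, site 12 above 75.1% and site 2 above 69.5%. In fragments the medians were 64 and 84, against 58 and 77 over all regions. By fragments in replicates 1 and 2, site 9 stood above 96.6% and 94.2% of all regions and site 12 above 91.95% and 92.5%, with the other sites lower. An IDR of at most 0.01 was reached by 8 of the 14 sites, and by 60.6% of all regions. The mean folds of sites 2, 8, 9, 11, 12 and 14 spanned 18.3 to 23.3. The SD between replicates, 8.86 at site 2 and 6.05 at site 12, exceeded that span, so the rank of sites 2 and 12 among them was not resolved. Nor was that of sites 9, 11 and 14, with means of 19.6, 18.3 and 18.3 and SDs of 3.43, 3.55 and 2.26.

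**Figure D2:**
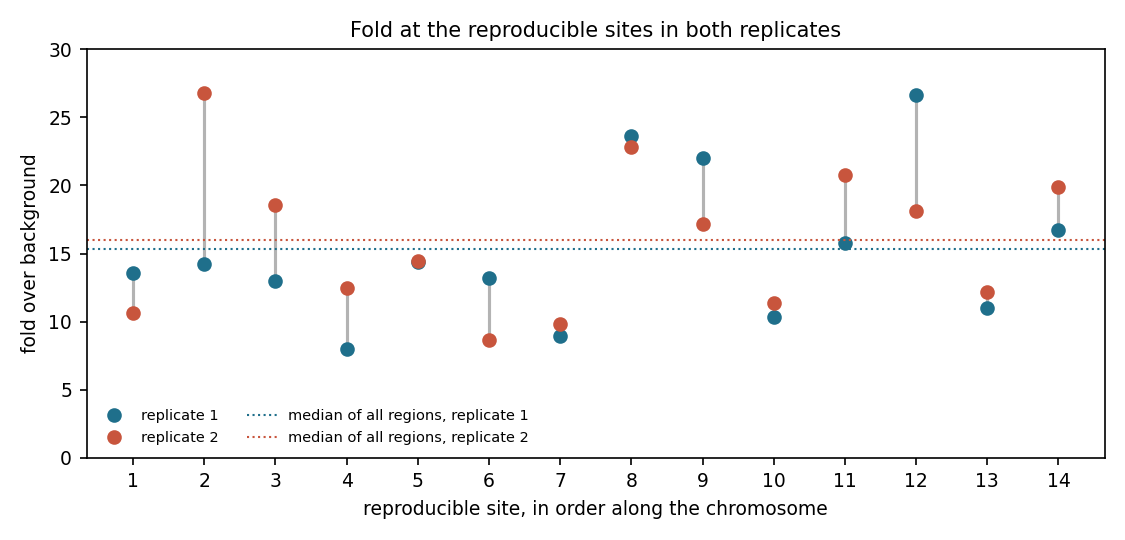
Authors' fold over background (vertical axis) at the tallest summit of each of the 14 reproducible sites in order along the chromosome (horizontal axis), with a grey line joining replicates 1 and 2 and dotted lines at the medians of all regions, 15.3 and 16.0. Site 2 shows the largest gap between replicates, 14.3 against 26.8, and sites 5 and 8 the smallest.

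The sites of the locus included some of the widest reproducible regions, which can join several peak intervals and the gaps between them. Site 12, with 2392 bp, ranked 3 by width among all regions, site 3 with 1715 bp ranked 28, site 11 with 1289 bp ranked 163 and site 5 with 1264 bp ranked 185. These 4 of 14 sites were in the widest 1% of regions, whereas the median site was 440.5 bp wide against 421 bp over all regions. Sites 5 and 11 joined separate peak intervals in both replicates, of 796 and 362 bp at site 5 and 739 and 381 bp at site 11 in replicate 1. The widest interval in site 12 was 1811 bp in replicate 1 and 1567 bp in replicate 2. More than 1 summit in both replicates was held by 5 sites (sites 3, 5, 8, 11 and 12), and 8 held a single one in each. The share of all regions with several summits in both was not counted. A wider region has room for more summits, so nothing is read from the link between width and summit number. The IDR table gave more than 1 entry to 3 of 14 sites, and to 6.14% of all regions. Among peak intervals with a summit in the window, 8 of 36 in replicate 1 and 5 of 48 in replicate 2 held several summits, beside 6.5% and 5.97% of all intervals in those lists.

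The replicates placed the tallest summit of a site a median of 10 bp apart, with a range of 3 to 55 bp. Of the window's intervals, 31 of 36 in replicate 1 (86.1%, 95% exact binomial interval 70.5 to 95.3%) overlapped an interval of replicate 2 by at least 1 bp, beside 82.0% of all intervals of replicate 1. In replicate 2 the number was 33 of 48 (68.8%, interval 53.7 to 81.3%), beside 62.8% of all. These intervals cover counting error only. Of the summits, 27 of 49 in replicate 1 and 26 of 58 in replicate 2 lay inside a reproducible region, beside 36.5% and 28.6% of all summits. The window was chosen for such regions, so nothing is read from these shares.

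To compare the replicates on a scale of counts, fragments at each site were tested against the share usual for regions of like height, over all regions. Replicate 2 had more fragments at 13 of 14 sites. The median ratio was 1.27 against 1.29 over all regions, so more fragments in replicate 2 were usual in the whole list. Exact binomial tests with Benjamini-Hochberg adjustment found a difference at 0 of 14 sites, beside 2.91% of all regions. The lowest adjusted p in the locus was 0.092, at site 6, where the ratio was 0.80 against 1.42 for regions of like height. An unadjusted p under 0.05 was found at 2 sites, 6 and 11 (0.0046 and 0.014), and at 16.4% of all regions. The ratio at site 11 was 1.71 against 1.22. The test compares the 2 libraries and allows for counting noise only.

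**Figure D3:**
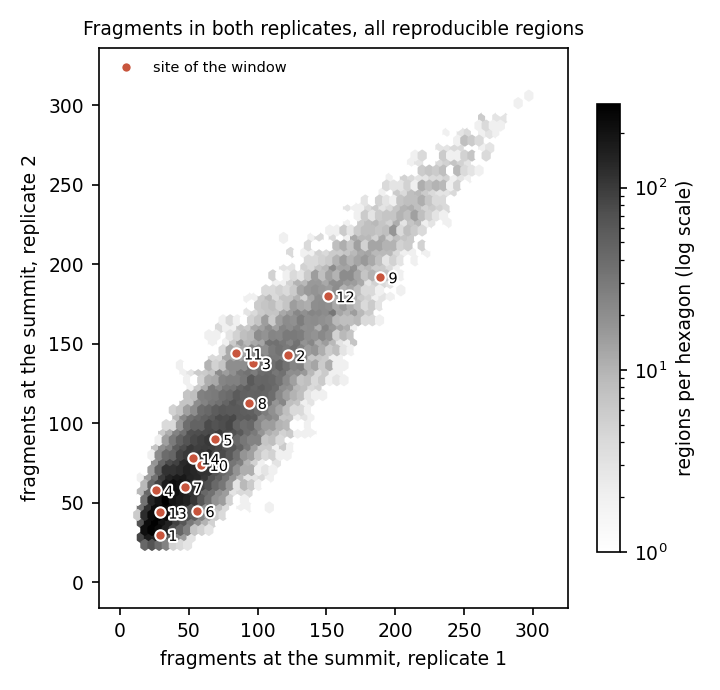
Fragments at the tallest summit in replicate 1 (horizontal axis) and replicate 2 (vertical axis) for all reproducible regions (grey hexagons, log scale of density) and for the 14 numbered sites. The sites lie inside the cloud of all regions, with site 6 below the other sites of like height in replicate 1 (56 and 45 fragments) and site 9 the tallest (189 and 192).

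Fold is made of scaled fragments and background, and both were solved from it and the p-value. Where fold differs between replicates more than scaled fragments do, the background therefore differs by construction. The values are given as a description. Mutual nearest summits within 100 bp of each other formed 37 pairs, 22 of them in sites. The median ratio of replicate 2 to replicate 1 was 1.25 in fragments and 1.15 in background. Background is in scaled units and the scale differs between replicates, so these ratios are not directly comparable. The fold differed at least 2.0 times in 5 pairs, all outside sites. Sites were kept for agreement of the replicates in rank, so the lack of such pairs in them follows in part from that choice. The share of such pairs over all chromosomes was not counted. The pair at 65151417 and 65151408, before NEAT1, had folds of 4.53 and 14.0 with 38 and 67 fragments and backgrounds of 7.0 and 2.90. The pair at 65253006 and 65252991, between the genes, had folds of 4.22 and 10.1 with 49 and 62 fragments and backgrounds of 10.0 and 4.0. The pair at 65205132 and 65205118, 15.1 kb inside NEAT1, had ratios of replicate 2 to replicate 1 of 2.29 in fold, 2.36 in fragments and 0.806 in background. In the opposite direction, the pair at 65220856 and 65220882 had folds of 10.6 and 4.76, with 35 and 27 fragments and backgrounds of 2.14 and 3.74. The pair at 65153901 and 65153891, before NEAT1, had folds of 8.36 and 3.88, with 31 and 23 fragments and backgrounds of 2.56 and 4.0. At the site level, 3 of 14 sites differed in fold at least 1.5 times (sites 2, 4 and 6), beside 29.7% of all regions.

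**Figure D4:**
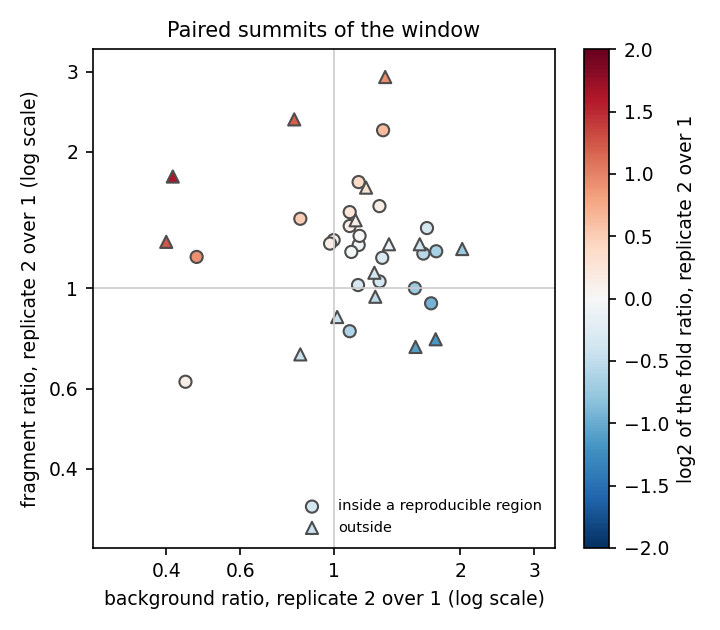
Ratio of replicate 2 to replicate 1 in fragments (vertical axis) against the ratio in background (horizontal axis), both on log scales, for the 37 summit pairs; colour gives the log2 ratio of fold, circles lie inside reproducible regions and triangles outside. The 3 ratios are tied by the formula of the fold, and the background is in scaled units, whose scale differs between replicates. Pairs with a fold higher in replicate 2 (red) include those at background ratios of 0.40 and 0.415, and the 2 pairs whose fold was at least 2.0 times lower in replicate 2 lie at 1.57 and 1.75.

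The background solved from fold and p had a higher median at the summits of the locus than over all summits in both replicates. At the window's summits its median, in scaled units, was 3.52 in replicate 1 (quartiles 3.0 and 4.90) and 4.0 in replicate 2 (3.06 and 4.59). Medians were 2.14 and 2.20 over all summits and 2.45 and 2.57 over chromosome 11. The floor of the background, below which MACS2 does not go, was met at 1 of 49 summits (2.04%) and 2 of 58 (3.45%), beside 10.8% and 17.0% of all summits. The highest values were 10.0 in replicate 1 and 11 in replicate 2 in MALAT1, 11 and 8.0 between the genes, 9.0 and 7.0 after MALAT1, 7.0 and 5.0 before NEAT1 and 6.0 in both in NEAT1. At sites, 10 of 14 in replicate 1 and 11 of 14 in replicate 2 were above the median background of all regions. The neighbouring 170 kb before the window had medians of 4.0 and 2.34, and those after it 3.0 and 3.4. A higher background lowers the fold for a given number of fragments. Its part in the ordinary folds of this locus was not tested.

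Sites were dense in the locus beside its flanks and beside most of the genome. The 170 kb before it held 3 reproducible regions, and the 170 kb after it held 1, against 14 inside. The nearest reproducible regions outside were 70.8 kb before the first border, with folds of 20.1 and 16.3, and 158 kb after the last, with 9.52 and 13.5. The first summits inside, at 65150010 and 65150006, were only 9 and 5 bp from the border, with folds of 3.93 and 2.93. The nearest outside were 13.9 and 8.88 kb before it, with folds of 4.99 and 4.29. At the other border the last summits inside, 1.80 and 1.78 kb from it, had folds of 6.22 and 4.74, and the first outside, 3.95 and 3.94 kb from it, had 4.65 and 9.15. Cut into 17863 tiles of 170 kb, the chromosomes had a mean of 1.43 regions per tile, and 44.4% of tiles had none. At least 14 regions were in 6 tiles, none of which overlapped the window, whose sites fell into 2 tiles with at most 12. A grid places tiles blindly, whereas the window was placed around its peaks: with a window started at every region, 12 other loci reached at least 14, with up to 18.

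**Figure D5:**
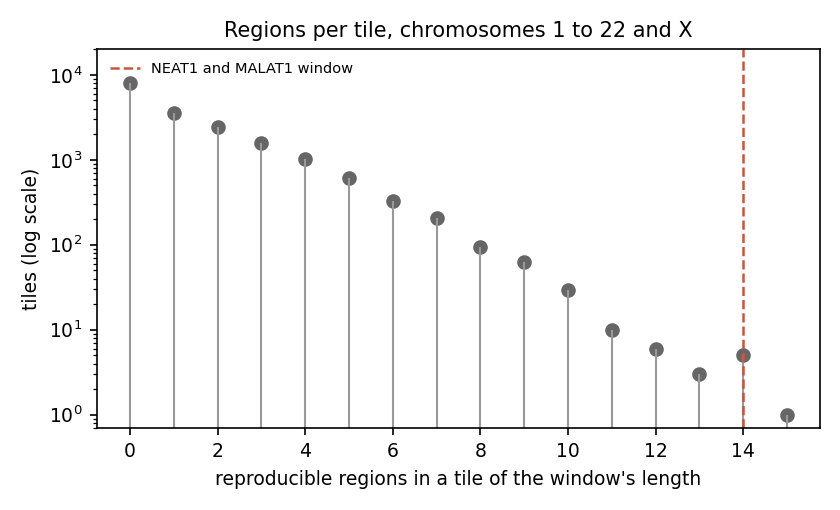
Number of tiles of 170 kb (vertical axis, log scale) by the number of reproducible regions they hold (horizontal axis), over chromosomes 1 to 22 and X, with a dashed line at the 14 regions of the NEAT1 and MALAT1 window. The counts fall from 7929 tiles without a region to 5 tiles with 14 and 1 with 15.

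Outside the sites, 22 summits of replicate 1 had folds of 2.74 to 11.9 (median 4.63), and 32 of replicate 2 had 2.65 to 14.0 (median 4.93). The highest in replicate 1 were those 3.81 kb inside NEAT1, at 65220856 between the genes (10.6, 35 fragments) and at the MALAT1 start. In replicate 2 they were those at 65151408 before NEAT1, at 65252991 between the genes and 15.1 kb inside NEAT1. Each of these overlapped an interval of the other replicate. In intervals seen in 1 replicate only, 5 of the 49 summits of replicate 1 had folds of 3.54 to 8.49, and 16 of the 58 of replicate 2 had 2.71 to 7.99. More such summits in replicate 2 is usual, since 82.0% of all intervals of replicate 1 but 62.8% of those of replicate 2 overlapped the other list. Of those 16, 6 lay in NEAT1 and 7 between the genes.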

How the data were processed

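CEBPB ChIP and input samples of NCM460 cells, 2 of each, were paired-end libraries. The submitters' processing notes name Bowtie2 2.3.4, SAMtools 1.9, MACS2 2.1.2, bedtools 2.25.0, FastQC 0.11.7 and hg19. How duplicate reads and inputs were handled, and all settings, are not given in the sources used here. In the authors' deposited lists, called per sample, each summit has a fold enrichment (ratio), a −log10 p-value, a −log10 q-value and a score that follows the q-value. All q-values were at most 0.05. Total reads per library were not used here. The authors' deposited IDR table has 20 columns, of which the −log10 global IDR and the interval were used. Its 4 columns of values per sample were not used.

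The members and lists were chosen with earlier results of these data known. Rows that share an interval became 1 region, giving 25602, of which 25594 held a summit of both lists. The summit with the lowest p in each list stood for a region. Fragments and background were solved from fold and p, with a pseudocount of 1 on pileup and background and a scale of 0.927 (replicate 1) or 0.80 (replicate 2) per fragment; the pileup was whole at 100% of summits within 0.005 on −log10 p. The background, in units of the scaled pileup, has a floor of 1.00 and 1.36. The step and the binomial test were tested on simulated data. These were built from the solved values and held counting noise only, so they do not cover other spread between replicates. Exact binomial tests were two-sided, with Benjamini-Hochberg adjustment over all regions. All 14 sites were described, and outside them the 3 summits highest by fold in each list and, chosen after their values were seen, the pairs that differed most or lay in a gene. Alternatives were other thresholds, overlaps, tiles, comparison shares and leaving out a replicate. Positions are hg19 counted from 1, and sequences are RefSeq's in GRCh38.p14. The work was done in Python 3.11.15 (SciPy 1.17.1 and NumPy 2.4.6 for the tests, statsmodels 0.14.6 for the adjustment, pandas 2.3.3 for tables, matplotlib 3.10.9 for plots).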

Additional observations from a re-analysis of the deposited data

How the results depend on the processing

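At the stricter IDR of 0.01, 8 of the 14 sites were left. Summit pairs within 100 bp whose q-values were both at most 0.01 numbered 36, under a rule that asks for no match of rank. The 6 tiles with at least as many regions became 3 with the tile grid shifted, 28 with regions at an IDR of at most 0.01 and, with the window started at every region, chosen after seeing the data, 12 other loci; with the summits of 1 replicate alone they became 0 to 1. Summit counts stayed within 1.5 times of 49 and 58, at 36 to 48 in the alternatives run. Shares of intervals in both replicates stayed inside their intervals. The median site stood above 43.1 to 48.5% of regions with 1 replicate left out, and 53.6% by −log10 p. The 0 sites that differed between replicates stayed 0 in the 3 alternatives run. No paired analysis was possible because no values were at hand for the inputs by themselves, so ChIP and input could not be set against each other by number. With 1 cell line, precision rests on the 2 ChIP samples. The fragments per summit, from 12 to 192 here, set the counting noise only.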
